A study of Mus musculus with 96 samples.

Results

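CFUE cells, sorted as colony-forming units of the erythroid lineage, were set against cells of the neighbouring upper intermediate gate, which lies between BFUE (burst-forming units) and CFUE and was named for 50 to 60% of CD71/CD24 expression. Members were wells with 50000 or more reads in genes, for CFUE with 7000 or more genes with a read. That left 22 of 24 CFUE cells and 24 of 24 upper intermediate cells, 46 of the 96 wells of the plate. The source was C57/Bl6J fetal liver of embryonic day 14.5, with mature red cells lysed and cells carrying Ter119, Sca-1, CD41, CD16/32, CD11b, CD45R, CD3e or Ly-6G removed. They were sorted singly by Kit (CD117) and by CD71 and CD24, whose antibodies both carried the dye PE, so the gate reads the sum of these proteins. Each well holds a Smart-seq2 library, full-length cDNA from 1 cell. Since no animal or pool is named in the labels, a gate is 1 sample here: no difference between the gates has a replicate check, and no test was made. Each gate filled 3 plate columns of its own, so the gates cannot be told apart from plate columns.

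Burst-forming and colony-forming units are committed red cell progenitors, the second later than the first and dependent on erythropoietin. A colony-forming unit divides a few times and then becomes an erythroblast, which makes hemoglobin, builds the spectrin-based membrane skeleton, condenses its nucleus and, in mammals, expels it. On that path the surface loses Kit, the stem cell factor receptor, and gains CD71, the transferrin receptor that brings in iron for heme.

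The compared CFUE cells held 1403173 to 2060115 reads and 7422 to 10246 genes, and the upper intermediate cells 1268042 to 1815656 reads and 8246 to 9856 genes. Summed, they gave 34506841 reads in CFUE and 36422769 in the upper gate, so that 3 reads correspond to 0.0869 and 0.0824 reads per 1000000 (CPM). Mitochondrial transcripts took a median of 1.72% of reads in CFUE and 1.87% in the upper gate, and the transcript CT010467.1, which resembles ribosomal RNA, 4.20% in CFUE and 6.01% in the upper gate. A setting with these and the globin genes left out of the totals was run, and its values are not reported here. The part of these transcripts in the differences was not tested. Of the CFUE wells left out, C12 held 14286 reads, and D10 held 947458 reads in 6361 genes, with 1697 CPM of Hba-a1, 5.28 CPM of Kit and no read of Cdc25b or Itga5. Intervals given for ratios are exact 95% intervals of counting error only, since reads without molecular identifiers are not independent molecules.

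Genes of the proteins used for sorting differed between the gates. For Tfrc and Cd24a, whose proteins set the gates, this says nothing new. Kit was also used for sorting, but the labels name no Kit bounds per gate. Kit (chr5:75574916-75656722, GRCm38, plus strand) stood at 277 CPM in CFUE against 402 CPM in the upper intermediate gate, 1.45-fold lower, with 13 of 22 CFUE cells and 21 of 24 upper intermediate cells at 200 CPM or more. Tfrc, which encodes CD71, was 1.25-fold higher in CFUE at 843 CPM in CFUE and 674 in the upper gate, and Cd24a 1.57-fold higher at 1155 CPM in CFUE and 737 in the upper gate. Of the genes listed for the label, Slc4a1, Hbb-bs and Cdc25b were higher and Itga5 lower in CFUE. Markers of neutrophils and monocytes, of lymphoid, of endothelial and stromal and of mast cells were low in both gates. The 12 neutrophil and monocyte markers summed to 3.39 CPM in CFUE and 3.68 CPM in the upper gate, the 11 lymphoid ones to 8.81 CPM in CFUE and 1.43 CPM in the upper gate (mostly Lck, at 7.91 CPM in CFUE and 0 in the upper gate), the 11 endothelial and stromal ones to 0.724 CPM in CFUE and 3.597 CPM in the upper gate, and the 8 of mast cells to 0 in both. Hepatoblast markers, led by Afp and Alb, were measurable in both gates and summed to 143 CPM in CFUE and 158 CPM in the upper gate, with 3.34 to 430.1 CPM per cell in CFUE and 24.2 to 623 CPM in the upper gate. Of 12 macrophage markers, Slc40a1 (ferroportin), which erythroid cells also express, was at 139 CPM in CFUE and 145 in the upper gate, while Adgre1, C1qa, Cd5l, Cd163 and Timd4 had no read in either gate.

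Genes that reached 10 CPM in 1 or both gates were called measured. Of these 7726 genes, 173 were 2-fold or more higher in CFUE (2.24% of genes) and 236 were 2-fold or more lower (3.05%). The excess of lower genes belonged to weakly expressed ones, since among 4229 genes at 50 CPM or more in either gate 38 were higher and 14 lower. Of the 173 higher genes, 159 were also higher within both blocks of plate rows, A–D and E–H, and of the 236 lower genes 230 were lower in both. The genes were picked on the sums of these same blocks, so agreement is partly built in and is no replicate check. No gene separated the cells, since 0 genes had every CFUE cell above every upper intermediate cell (0% of genes) and 0 had every CFUE cell below (0%). Most genes called on the sums overlapped widely between single cells. The share of pairs of 1 CFUE and 1 upper intermediate cell in which the CFUE cell was higher had a median of 67.1% over the 2-fold higher genes and of 33.0% over the 2-fold lower ones, against 49.2% over all measured genes. The longest transcript had a median of 3687 bases over the 173 higher genes and of 4052 bases over the 236 lower ones, against 3268 bases over all measured genes.

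**Figure D1:**
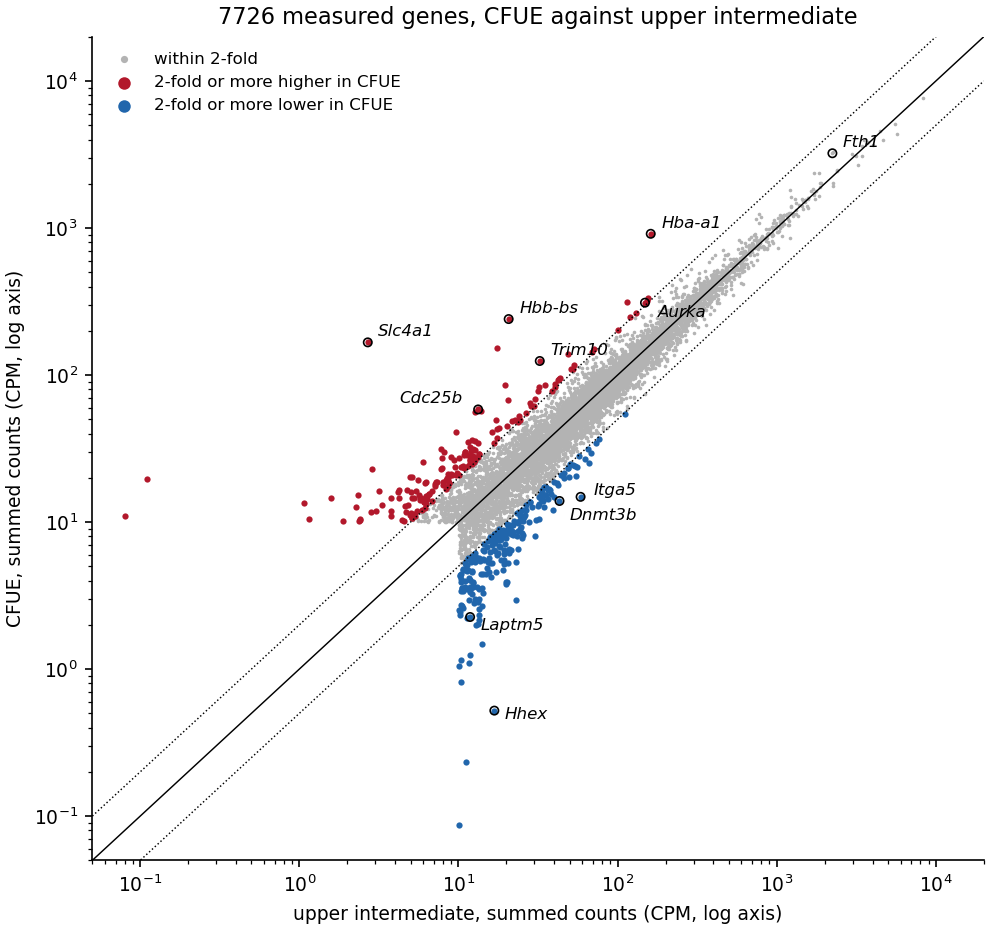
Summed expression of the 7726 measured genes in CFUE (vertical, CPM, log axis) against the upper intermediate gate (horizontal, CPM, log axis); values below 0.08 CPM are drawn at 0.08, dotted lines mark 2-fold and the full line equality. Slc4a1 lies far above the line at 167 CPM in CFUE and 2.69 in the upper gate, Itga5 below it at 14.8 CPM in CFUE and 58.5 in the upper gate, and most other coloured genes lie at low levels.

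The largest change among genes at 50 CPM or more was that of Slc4a1 (chr11:102348824-102366203, minus strand), the band 3 anion exchanger that anchors the membrane skeleton. It stood at 167 CPM in CFUE against 2.69 CPM in the upper intermediate gate, 62.01-fold higher (interval 50.8 to 76.5), with lowest, median and highest levels per cell of 0, 23.8 and 632 CPM in CFUE and of 0, 0 and 25.01 CPM in the upper gate. It had 10 reads or more in 12 of 22 CFUE cells and 3 of 24 upper intermediate cells. Among CFUE cells it split widely: 3 of 22 held no read and 9 of 22 (40.9%) held 100 CPM or more, a level that 0 of 24 upper intermediate cells reached. Thus 11 CFUE cells lay above every upper intermediate cell and the other 11 lay inside that gate's range. In the earlier gates the gene was close to its floor, with 0.236 CPM in BFUE and 0.225 CPM in the lower intermediate gate and no cell of either with 10 reads. The upper intermediate cell of well G7 held 38.8% of its gate's reads, and the top CFUE cell held 16.7% of the CFUE reads. Without the first the ratio was higher, and without the second it was lower. The log2 ratio was 5.18 in rows A–D and 6.14 in rows E–H.

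Globin genes were the next most changed. All 4 measured members of the globin list were 1.5-fold or more higher in CFUE, against 7.39% of all measured genes. Their log2 ratios had a median of 2.82 (1.86 within rows A–D, 3.54 within rows E–H), and those of all measured genes one of -0.00. Hba-a1 (chr11:32283511-32284465, plus strand), an alpha globin gene, stood at 913 CPM in CFUE against 161 CPM in the upper intermediate gate, 5.66-fold higher, with lowest, median and highest levels per cell of 18.8, 647 and 3076 CPM in CFUE and of 15.96, 80.4 and 901 CPM in the upper gate. Every cell of both gates had at least 10 reads of it, so the difference lay in the level: 15 of 22 CFUE cells (68.2%) and 3 of 24 upper intermediate cells (12.5%) held 200 CPM or more. Hbb-bs (chr7:103826534-103828096, minus strand), an adult beta globin gene, stood at 240.3 CPM in CFUE against 20.7 CPM in the upper intermediate gate, 11.6-fold higher (interval 10.8 to 12.5), with lowest, median and highest levels per cell of 0.585, 38.3 and 1724 CPM in CFUE and of 0, 6.93 and 235 CPM in the upper gate. It had 10 reads or more in 15 of 22 CFUE cells and 12 of 24 upper intermediate cells. The sums rest on few cells here. The CFUE cell of well F12 held 30.6% of the reads of its gate, and the upper intermediate cell of well A8 held 48.1% of its own. Without the second the ratio of Hbb-bs was above 11.6-fold, and without the first it was below 11.6-fold. Its neighbour Hbb-bt behaved alike, at 154 CPM in CFUE against 17.6 CPM in the upper intermediate gate, 8.76-fold higher, with 17 of 22 CFUE cells and 8 of 24 upper intermediate cells at 10 reads or more. The upper intermediate cell of well A8 held 45.6% of that gate's Hbb-bt reads, and the top CFUE cell held 20.5% of the CFUE reads. Without the first the ratio was higher, and without the second it was lower. Hba-a2 was 4.37-fold higher at 86.2 CPM in CFUE and 19.7 in the upper gate. How reads were split between Hba-a1 and its copy Hba-a2, or between Hbb-bs and its copy Hbb-bt, is uncertain, since the sequences are nearly the same. By plate rows, with A–D before E–H, the log2 ratios were Hbb-bs (2.30 and 4.37), Hbb-bt (1.73 and 4.86) and Hba-a2 (1.11 and 2.72). The embryonic globins Hba-x, Hbb-y and Hbb-bh1 summed to under 2 CPM in either gate.

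Within CFUE, cells rich in one late erythroid transcript were rich in others. The cell of well F12 held 632 CPM of Slc4a1, 1724 CPM of Hbb-bs and 3076 CPM of Hba-a1, while that of well C10 held 2.09, 0.696 and 18.8 CPM. Across the 22 CFUE cells the Spearman correlation of Slc4a1 was 0.82 with Hba-a1, 0.76 with Hbb-bs, 0.73 with Cd24a, 0.63 with Cdc25b and -0.48 with Kit. Across the 24 upper intermediate cells the same relations were 0.06, -0.01, 0.01, -0.24 and -0.32, with Slc4a1 at 0 reads in 14 of them. Between Hba-a1 and Hbb-bs the coefficient was 0.85 in CFUE and 0.29 in the upper gate. Between the membrane skeleton and globin scores per cell, made as described below, it was 0.81 in CFUE and 0.56 in the upper gate. Positive relations were thus not confined to CFUE. These are descriptions over cells of 1 gate that share a plate and have similar depth.

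**Figure D2:**
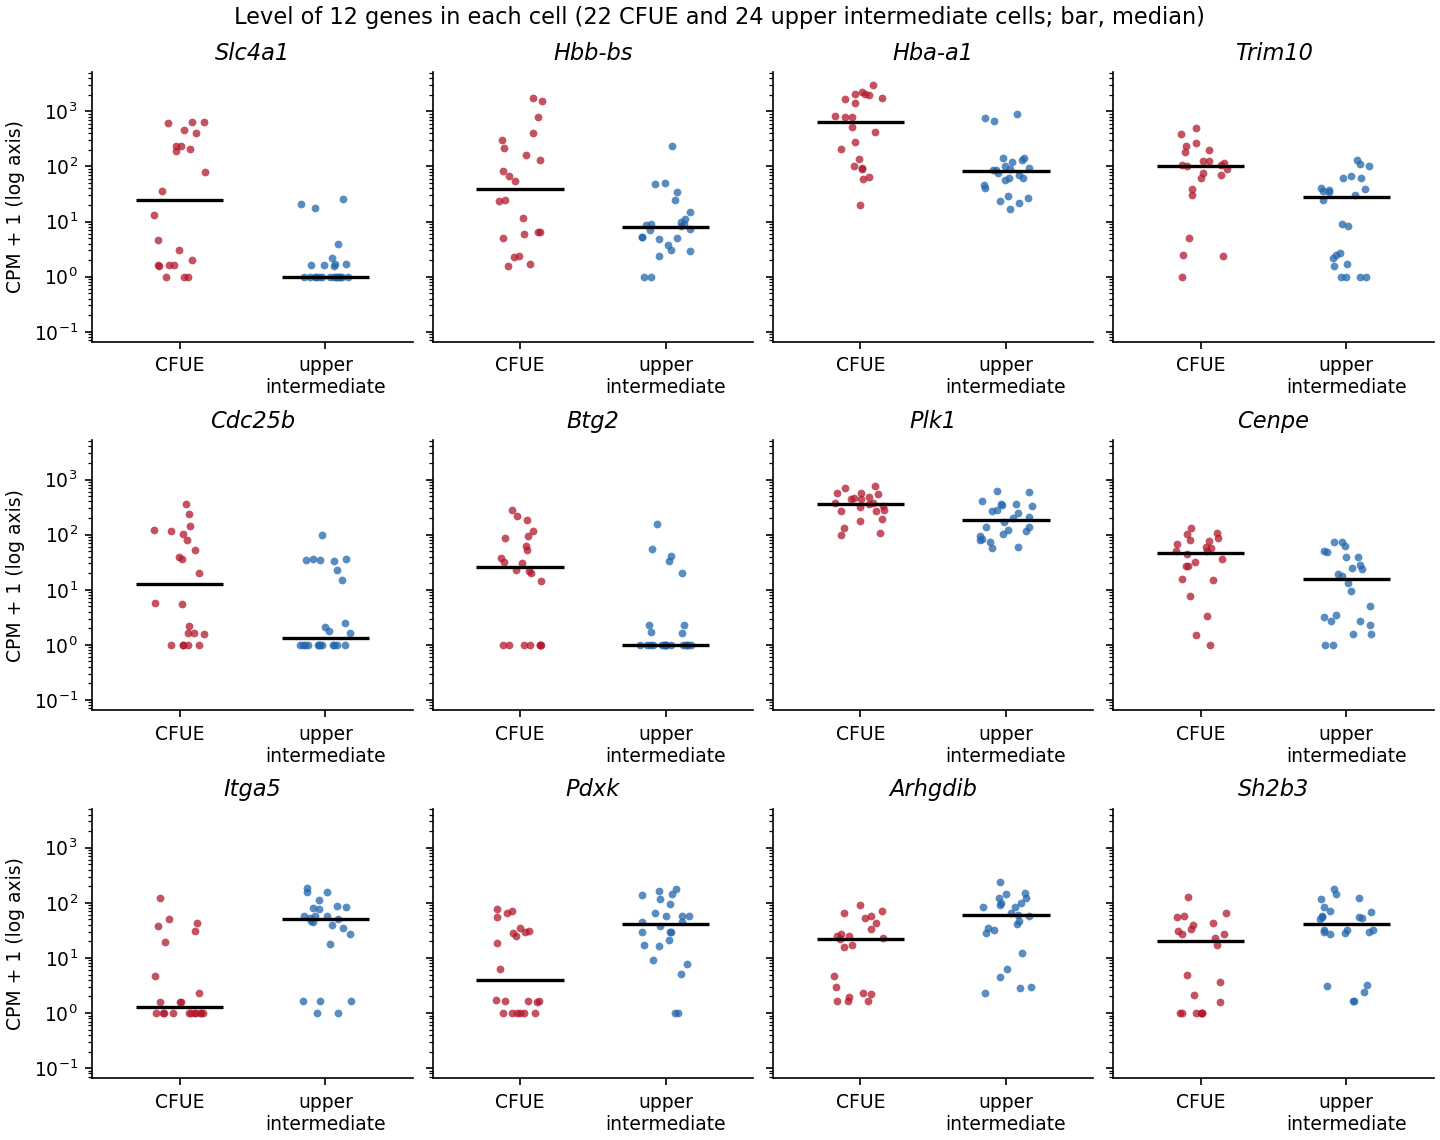
Level of 12 genes in each single cell, as CPM plus 1 on a log axis shared by all panels, with the 22 CFUE cells left and the 24 upper intermediate cells right; bars are medians. Slc4a1 spreads over 0 to 632 CPM in CFUE and ends at 25.01 CPM in the upper gate, while Itga5 has a median of 0.287 CPM in CFUE and 50.7 CPM in the upper gate.

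To show what lies before the globin genes, the 150 bases before the RefSeq start (GRCm38.p6, 5′ to 3′ on the gene's strand) of Hba-a1, chr11:32283522-32283671 on the plus strand, and Hbb-bs, chr7:103827929-103828078 on the minus strand, are given with matches of CCAAT, the letters of the CCAAT box bound by factors such as NF-Y, and of CCACACCC, a CACCC box of the kind bound by KLF1, in capitals.
Hba-a1: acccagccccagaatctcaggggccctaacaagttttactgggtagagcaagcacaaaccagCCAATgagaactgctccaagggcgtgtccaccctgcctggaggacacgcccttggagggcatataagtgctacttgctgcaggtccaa
Hbb-bs: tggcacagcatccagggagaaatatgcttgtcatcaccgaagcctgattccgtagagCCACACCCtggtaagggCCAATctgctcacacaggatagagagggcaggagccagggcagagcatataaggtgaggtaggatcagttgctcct
In Hbb-bs the CACCC box starts at -93 and the CCAAT box at -76 from the start, and in Hba-a1 the CCAAT box starts at -88. Searched on both strands over 250 bases, CCACACCC was found in 4.59% of promoters of the 2-fold higher genes, 3.31% of those of all measured genes and 3.2% of all 32851 promoters. The GATA motif, AGATAA or as the variant AGATAG, was found in 14.3% of promoters of the higher genes, 8.91% of those of the lower genes, 10.3% of those of all measured genes and 16.5% of all promoters. A match is a description of letters in a window and not of a bound site.

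Heme synthesis genes were moderately higher in CFUE, at almost every step. Of 19 measured members 8 were 1.5-fold or more higher (7.39% of all measured genes were) and 0 lower (8.94%), and 18 had a ratio above 1, against 3812 of all 7726 measured genes. The median of the list's log2 ratios was 0.58 (0.25 within rows A–D, 0.76 within rows E–H). Alas2, the erythroid isoform of the rate-limiting enzyme, was the most changed, at 31.5 CPM in CFUE against 7.77 CPM in the upper intermediate gate, 4.05-fold higher, with 10 reads or more in 10 of 22 CFUE cells and 5 of 24 upper intermediate cells. The upper intermediate cell of well H8 held 47.3% of that gate's Alas2 reads, and the top CFUE cell held 34.1% of the CFUE reads of Alas2. Without the first the ratio was higher, and without the second it was lower. Alas1, the form used by all tissues, went the other way at 21.4 CPM in CFUE and 30.3 in the upper gate. Abcb10, a mitochondrial inner membrane transporter, was 2.16-fold higher (337 CPM in CFUE and 156 in the upper gate), Uros, uroporphyrinogen III synthase, 2.08-fold (248 CPM in CFUE and 119 in the upper gate), Fam210b, a mitochondrial protein, 1.92-fold (124 CPM in CFUE and 64.4 in the upper gate) and Ppox, protoporphyrinogen oxidase, 1.67-fold (388 CPM in CFUE and 232 in the upper gate). The differences in the most abundant members were small in fold but held over most pairs of cells. Alad, the enzyme that joins 2 aminolevulinic acids, was 1.5004-fold higher (interval 1.48 to 1.52, and 1.47-fold without the CFUE cell of well E12), with lowest, median and highest levels per cell of 689, 1138 and 1702 CPM in CFUE and of 529.7, 751 and 1354 CPM in the upper gate, and the CFUE cell was higher in 87.7% of pairs. Tmem14c, which carries porphyrin precursors into mitochondria, was 1.604-fold higher with 86.4% of pairs. Fech, which inserts the iron, differed less, at 871 CPM in CFUE and 687 in the upper gate, 1.27-fold. The 1.5-fold call ended in rows A–D for 5 of these genes, with log2 ratios in rows A–D and in E–H of Abcb10 (0.39 and 1.62), Fam210b (0.49 and 1.28), Ppox (0.09 and 1.05), Alad (0.34 and 0.77) and Tmem14c (0.53 and 0.78). Alas2 had 3.37 in rows A–D and 1.62 in rows E–H.

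Iron handling changed little beside this. Of 18 measured members 1 was 1.5-fold or more higher, where 7.39% of all measured genes were. This was Slc25a37 (mitoferrin 1, the mitochondrial iron importer), at 82.7 CPM in CFUE against 32.2 CPM in the upper intermediate gate, 2.56-fold higher. Its log2 ratio was 0.09 in rows A–D and 2.13 in rows E–H. Ferritin heavy chain, Fth1, was 1.44-fold higher at 3225 CPM in CFUE and 2238 in the upper gate, under the 1.5-fold mark, yet it was the measured gene with the largest share of pairs, since the CFUE cell was higher in 90.5% of them. Its light chain Ftl1 was 1.31-fold higher with 83.5% of pairs. Only 23 genes (0.298% of those measured) reached 80% of pairs, 6 of them 2-fold higher on the sums. After Fth1, Alad, Tmem14c, Hba-a2 and Ftl1 came Acp1, a small tyrosine phosphatase (Acp1 449 CPM in CFUE and 318 in the upper gate, 83.3%), Rfesd (82.8%), Phf10, a subunit of SWI/SNF complexes (2.16-fold higher, 82.6%), and Dek, a chromatin protein (82.2%). These genes and the 80% bound were chosen after the values were seen.

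Of the red cell membrane skeleton, 15 of 18 measured members had a ratio above 1, against 3812 of all 7726 measured genes. At 1.5-fold, 7 stood higher (background, the share of all measured genes past the same mark, 7.39%) and 1 lower (background 8.94%), and the median of the log2 ratios was 0.18 (0.01 within rows A–D, 0.38 within rows E–H). After Slc4a1, Dmtn (dematin, which bundles actin at the skeleton's junctions) was 2.87-fold higher at 139.7 CPM in CFUE against 48.7 CPM in the upper intermediate gate, with lowest, median and highest levels per cell of 0.485, 122 and 375 CPM in CFUE and of 0, 30.3 and 194 CPM in the upper gate. Beta spectrin, Sptb, was 1.85-fold higher (180.2 CPM in CFUE and 97.3 in the upper gate), but its log2 ratio was -0.04 in rows A–D and 1.37 in rows E–H, while ankyrin, Ank1, stood at 72.2 CPM in CFUE and 66.6 in the upper gate. Epb42 (protein 4.2) was 1.82-fold higher, Kel (the Kell blood group protein) 1.73-fold, and Mpp1 (p55) 1.68-fold, or 1.44-fold without the CFUE cell of well G12. Tmod1 (tropomodulin, which caps actin) was 1.75-fold higher, with a log2 ratio of -0.80 in rows A–D and 1.74 in rows E–H. The call also ended in rows A–D for Kel (0.33 and 1.12) and Mpp1 (0.37 and 1.05), the values being log2 ratios in rows A–D and in E–H. Piezo1, a mechanically gated ion channel, was the lower member at 27.6 CPM in CFUE and 47.9 in the upper gate, 1.74-fold.

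Among 17 measured erythroid surface genes 4 were 1.5-fold or more higher (background 7.39%) and 1 lower (background 8.94%). Rhd (the Rh antigen) was 1.55-fold and Cldn13 (an erythroid claudin) 1.53-fold higher, both under 1.5-fold without the CFUE cell of well F11 (1.49-fold for Rhd and 1.47-fold for Cldn13). Abcb4, a phospholipid transporter, was 1.57-fold lower, or 1.49-fold without the upper intermediate cell of well F9. Of the late erythroblast list, 9 of 20 measured genes were higher (background 7.39%) and 0 lower (background 8.94%), with a median log2 ratio of 0.53. Of these 9, Tspan33 was 1.35-fold without the CFUE cell of well B12 and Tspo2 1.45-fold without the CFUE cell of well B12. Trim10 (chr17:36869574-36877833, plus strand), an erythroid RING finger protein, stood at 125 CPM in CFUE against 32.4 CPM in the upper intermediate gate, 3.84-fold higher, with lowest, median and highest levels per cell of 0, 103 and 489 CPM in CFUE and of 0, 26.5 and 129.9 CPM in the upper gate. It had 10 reads or more in 18 of 22 CFUE cells and 15 of 24 upper intermediate cells. A level of 100 CPM or more was held by 12 of 22 CFUE cells (54.5%) and 2 of 24 upper intermediate cells (8.33%). Isg20 was 2.69-fold higher, Ube2l6 (a ubiquitin and ISG15 conjugating enzyme) 2.203-fold and Hemgn (hemogen) 1.76-fold. In rows A–D the 1.5-fold call ended for each of the following, given with log2 ratios there and in rows E–H: Isg20 (0.05 and 2.25), Ube2l6 (0.57 and 1.66), Hemgn (0.31 and 1.34), Tspan33 (0.53 and 0.76), Tspo2 (0.36 and 0.79), Rhd (0.19 and 0.95), Cldn13 (0.04 and 1.13) and Abcb4 (-0.23 and -0.95). Isg20 had 10 reads or more in 14 of 22 CFUE cells and 15 of 24 upper intermediate cells. Car2, Gpx1 and Prdx2, already among the strong genes of the upper gate, were 1.47-fold, 1.28-fold and 1.37-fold higher.

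**Figure D3:**
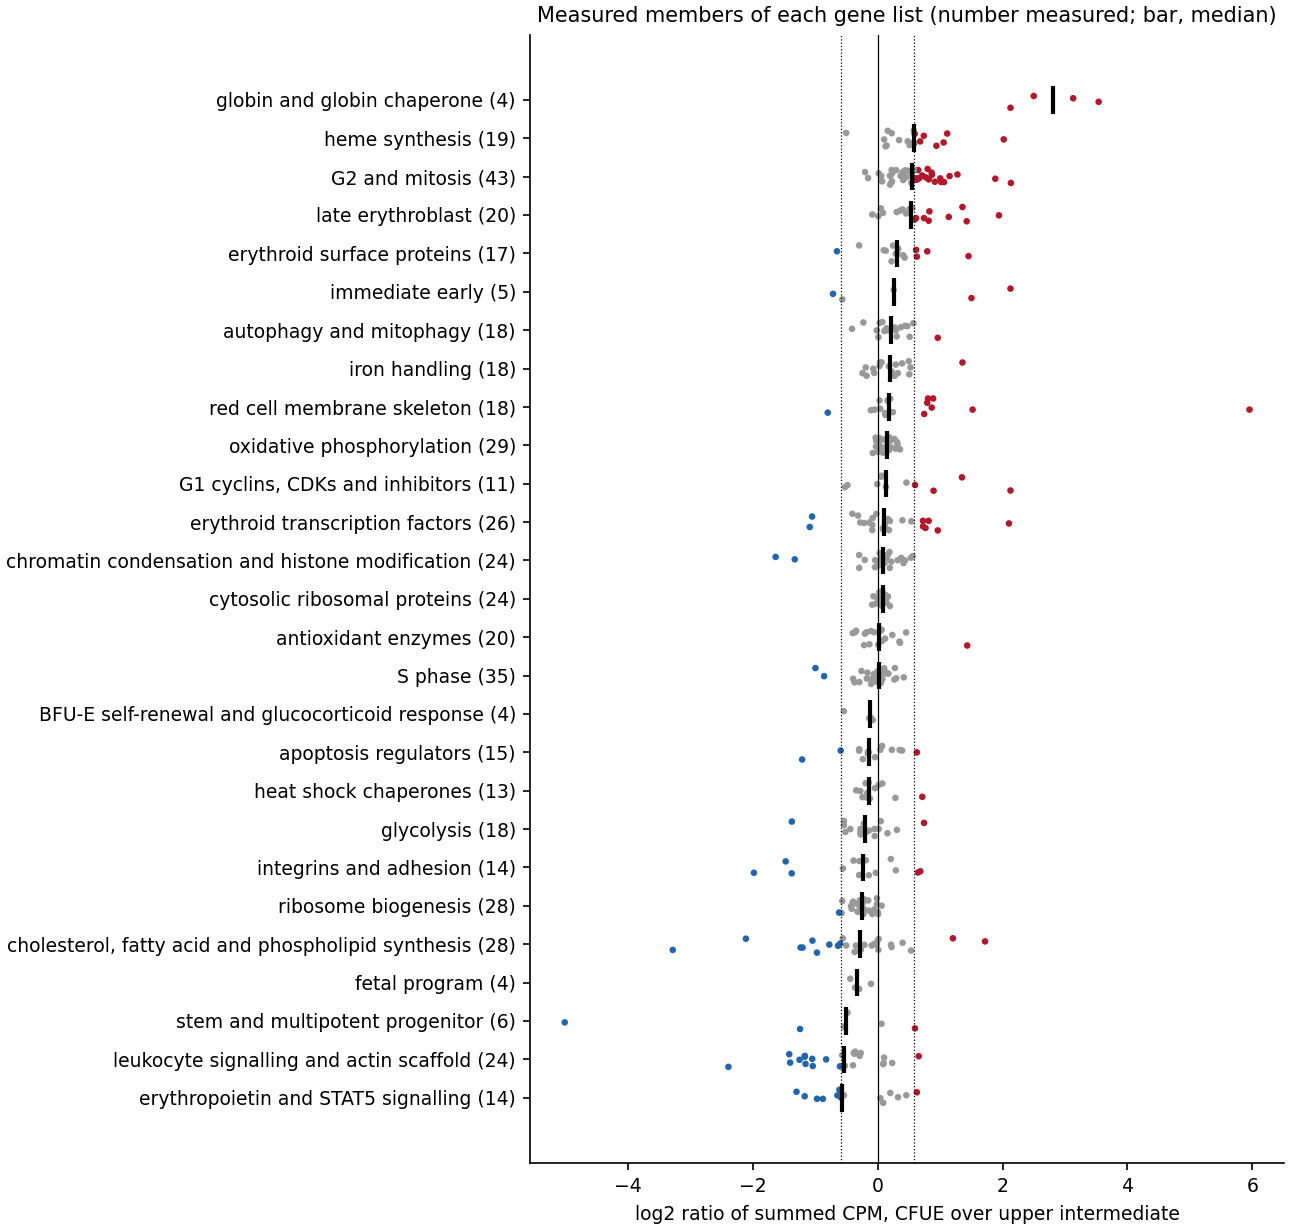
Log2 ratio of summed CPM, CFUE over upper intermediate, for the measured members of 27 gene lists (points; red and blue past 1.5-fold, dotted lines) with list medians (bars) and, in brackets, the number measured; the list of 4 globin genes is at the top with a median of 2.82. Heme synthesis, G2 and mitosis and late erythroblast genes follow at 0.58, 0.55 and 0.53, and erythropoietin and STAT5 signalling is at the bottom at -0.56.

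Genes of G2 and mitosis were higher in CFUE as a group, while genes of S phase were level. Of 43 measured genes of G2 and mitosis 19 were 1.5-fold or more higher (background 7.39%) and 0 lower (background 8.94%). A ratio above 1 was found for 41 of them, and for 3812 of all 7726 measured genes. The median log2 ratio of the list was 0.55 (0.35 within rows A–D, 0.62 within rows E–H). The S phase list had 0 of 35 measured genes higher (background 7.39%) and 2 lower (background 8.94%), and a median of 0.02 (-0.04 within rows A–D, 0.12 within rows E–H). Cdc25b (chr2:131186949-131198497, plus strand), the phosphatase that activates cyclin-dependent kinase 1 on entry into mitosis, was the most changed member. It stood at 58.3 CPM in CFUE against 13.3 CPM in the upper intermediate gate, 4.39-fold higher (interval 3.97 to 4.86), with lowest, median and highest levels per cell of 0, 11.8 and 366 CPM in CFUE and of 0, 0.334 and 99.6 CPM in the upper gate, and 5 of 22 CFUE cells and 0 of 24 upper intermediate cells held 100 CPM or more. BFUE and the lower intermediate gate were near the upper gate, at 10.1 and 10.8 CPM. Its relative Cdc25c stood at 27.7 CPM in CFUE and 31.9 in the upper gate.

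Psrc1 (a spindle microtubule protein) was 3.69-fold higher at 29.9 CPM in CFUE and 8.099 in the upper gate. Kif23, the kinesin of the central spindle, was 2.43-fold higher (84.97 CPM in CFUE and 35.03 in the upper gate), Cenpe, the kinetochore kinesin, 2.22-fold (48.3 CPM in CFUE and 21.7 in the upper gate), Aurka, the spindle pole kinase, 2.09-fold (311 CPM in CFUE and 149 in the upper gate) and Prc1, which bundles midzone microtubules, 2.004-fold (203 CPM in CFUE and 101 in the upper gate). Cenpe had lowest, median and highest levels per cell of 0, 46.3 and 133 CPM in CFUE and of 0, 14.4 and 72.9 CPM in the upper gate, so that the gates overlapped over most of their range. Plk1, polo-like kinase 1, was 1.64-fold higher (interval 1.59 to 1.69), with 10 reads in every cell and the CFUE cell higher in 74.2% of pairs. Ube2c, the ubiquitin-conjugating enzyme of the anaphase-promoting complex, and Top2a were 1.89-fold and 1.82-fold higher, and Ccnb1 (cyclin B1) 1.57-fold. Of the 19 members past 1.5-fold, 5 near that mark came under it without 1 CFUE cell: Arl6ip1 (1.499-fold without F12), Ccnb1 (1.499-fold without G10), Ect2 (1.44-fold without E11), Kif2c (1.41-fold without A12) and Mki67 (1.42-fold without A10). Psrc1 had log2 ratios of 6.21 in rows A–D and 0.81 in rows E–H. Calls ended in rows A–D, with log2 ratios there and in E–H, for Top2a (0.42 and 1.04), Ect2 (0.53 and 0.62), Kif2c (0.04 and 0.98) and Mki67 (0.32 and 0.90). Members with smaller ratios were Ccna2 (1.17-fold), Cenpa (1.04-fold) and Kif4 (1.11-fold lower). The S phase members past 1.5-fold were Ung, uracil-DNA glycosylase, at 74.8 CPM in CFUE and 149 in the upper gate (1.99-fold lower), and E2f1, at 5.85 CPM in CFUE and 10.6 in the upper gate (1.81-fold lower, and 2.82-fold without the CFUE cell of well B11, with log2 ratios of -1.09 in rows A–D and -0.42 in rows E–H). The Mcm genes of the replicative helicase lay, from Mcm5 to Mcm6, within log2 ratios of -0.08 and 0.17.

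Scores were made per cell as the mean log2 of CPM plus 10 over the measured list members, after each cell was thinned to 1000000 reads. The G2 and mitosis score had lowest, median and highest values of 6.19, 7.07 and 7.92 in CFUE and of 5.81, 6.47 and 7.48 in the upper gate. Thus 7 of 22 CFUE cells lay above every upper intermediate cell, and no CFUE cell lay below the lowest. The S phase score had medians of 7.98 in CFUE and 8.02 in the upper gate. For heme synthesis the medians were 7.86 in CFUE and 7.36 in the upper gate, and 11 CFUE cells lay above every upper intermediate cell. Across CFUE cells the G2 and mitosis score had a Spearman correlation of 0.63 with the membrane skeleton score, 0.53 with the heme score and -0.36 with the S phase score (n = 22). Across upper intermediate cells these were 0.32, 0.35 and -0.65 (n = 24). With reads per cell the coefficient was 0.11 in CFUE and 0.10 in the upper gate. The scores share each cell's library and depth, and these values are a description.

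**Figure D4:**
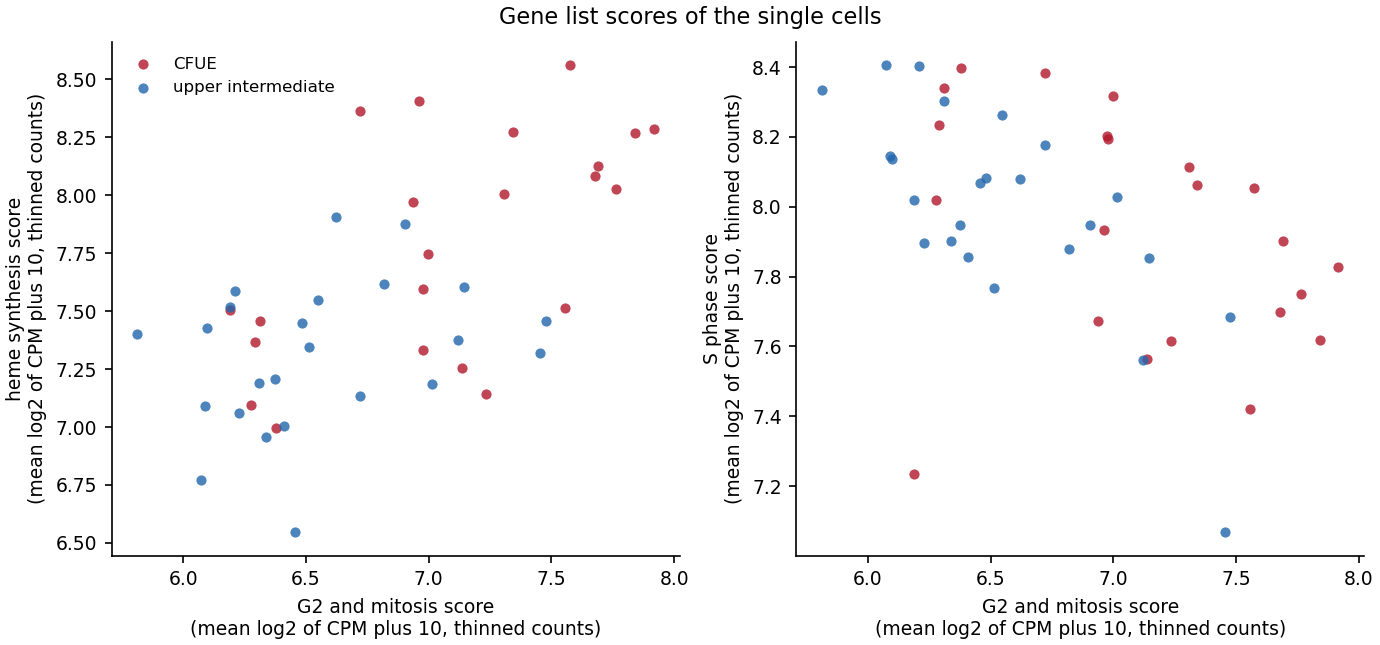
Scores of single cells (points; red, CFUE; blue, upper intermediate), each the mean log2 of CPM plus 10 over a list in thinned counts, with G2 and mitosis on the horizontal axes and heme synthesis (left) or S phase (right) on the vertical ones. The 7 rightmost cells are CFUE cells, past the highest upper intermediate score of 7.48, and 11 CFUE cells lie above the highest heme score of the upper gate.

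Promoters of the G2 and mitosis list differed in letters from those of measured genes at large, which is known of these genes. The CCAAT box, CCAAT on either strand in the 250 bases before the start, was found in 33 of 40 promoters of the list (82.5%), in 36.5% of those of all measured genes and in 33.8% of all 32851 promoters. A core of the cell cycle homology region, TTTGAA or as the variant TTCGAA, was found in 16 of 40 promoters of the list (40%), 12.6% of measured genes and 17.1% of all promoters. Among all 2-fold higher genes the shares were 41.3% for CCAAT and 14.8% for the second motif, and among all 2-fold lower genes 33.3% and 9.3%. Sequences follow for Cdc25b, chr2:131186798-131186947, Cenpe, chr3:135212413-135212562, and Plk1, chr7:122159285-122159434, all on the plus strand of GRCm38.p6 from RefSeq, 5′ to 3′ up to the base before the start, with CCAAT or its reverse complement ATTGG in capitals, to set the most changed member beside 2 others.
Cdc25b: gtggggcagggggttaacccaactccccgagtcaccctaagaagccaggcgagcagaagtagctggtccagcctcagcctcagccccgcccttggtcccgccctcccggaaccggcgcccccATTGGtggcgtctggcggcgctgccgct
Cenpe: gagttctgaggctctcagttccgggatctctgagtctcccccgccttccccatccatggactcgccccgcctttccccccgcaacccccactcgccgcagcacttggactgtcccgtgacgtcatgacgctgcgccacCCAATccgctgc
Plk1: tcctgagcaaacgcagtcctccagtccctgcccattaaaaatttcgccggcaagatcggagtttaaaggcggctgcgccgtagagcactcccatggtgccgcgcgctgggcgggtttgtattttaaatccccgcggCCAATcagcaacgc
The box starts at -28 in Cdc25b, where it is on the other strand, at -12 in Cenpe and at -14 in Plk1. Neither core of the cell cycle homology region was found in the 250 bases of these 3 promoters.

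Of 11 measured G1 cyclins, kinases and inhibitors 4 were 1.5-fold or more higher (background 7.39%) and 0 lower (background 8.94%). Btg2 (chr1:134075170-134079120, minus strand), an antiproliferative gene, stood at 55.8 CPM in CFUE against 12.8 CPM in the upper intermediate gate, 4.37-fold higher, with lowest, median and highest levels per cell of 0, 25.2 and 279.5 CPM in CFUE and of 0, 0 and 157 CPM in the upper gate. It had 10 reads or more in 15 of 22 CFUE cells and 5 of 24 upper intermediate cells. The upper intermediate cell of well A8 alone held 52.0% of that gate's Btg2 reads, and the top CFUE cell held 21.5% of the CFUE reads of Btg2. Without the first the ratio was higher, and without the second it was lower. The log2 ratio of Btg2 was 0.61 in rows A–D and 3.34 in rows E–H. The 2-fold call ended in rows A–D. Cdkn2d (the inhibitor p19) was 1.86-fold higher at 14.7 CPM in CFUE and 7.88 in the upper gate and Ccnd3 (cyclin D3) 1.52-fold at 494 CPM in CFUE and 326 in the upper gate, the second with log2 ratios of -0.02 in rows A–D and 1.03 in rows E–H, and 1.44-fold without the CFUE cell of well A12. Cdkn2d had log2 ratios of 0.28 in rows A–D and 1.03 in rows E–H. Rb1 was 2.55-fold higher but went opposite ways over the plate, -1.03 in rows A–D and 4.09 in rows E–H on the log2 scale. Cdkn1b (p27) was under 10 CPM in both gates, at 7.91 CPM in CFUE and 3.27 in the upper gate, and Cdk6 stood at 151 CPM in CFUE and 211 in the upper gate.

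Itga5 (chr15:103344286-103366763, minus strand), the alpha chain of the fibronectin receptor integrin, had the largest fold among genes lower in CFUE that reached 50 CPM in either gate. It stood at 14.8 CPM in CFUE against 58.5 CPM in the upper intermediate gate, 3.95-fold lower (interval 3.58 to 4.35), with lowest, median and highest levels per cell of 0, 0.287 and 119.9 CPM in CFUE and of 0, 50.7 and 182 CPM in the upper gate. No read was found in 11 of 22 CFUE cells and in 2 of 24 upper intermediate cells, and 10 reads or more in 6 of 22 CFUE cells and 19 of 24 upper intermediate cells. The CFUE cell of well D12, at 119.9 CPM, held 40.0% of its gate's reads, and the top upper intermediate cell held 11.7% of that gate's reads. Without the first the fold was larger, and without the second it was smaller. The log2 ratio of Itga5 was -0.93 in rows A–D and -3.45 in rows E–H. The 2-fold call ended in rows A–D. The level did not fall steadily along the gates, with 25.7 CPM in BFUE, 46.6 CPM in the lower intermediate gate, 58.5 CPM in the upper one and 14.8 CPM in CFUE. It was the single gene among 7374 (0.0136%) whose share of cells with 10 reads was 50 percentage points or more smaller in CFUE. Its partner Itgb1 (the beta 1 chain) stood at 463 CPM in CFUE and 400.1 in the upper gate, 1.16-fold, and Itga4 (the alpha 4 chain) at 73.9 CPM in CFUE and 96.5 in the upper gate. The 150 bases before the RefSeq start of Itga5, chr15:103366792-103366941 on the minus strand (GRCm38.p6), are shown. They are all in lower case since neither strand of its 250 bases matched any motif searched. This promoter does not stand for the 2-fold lower genes, of whose promoters 33.3% held CCAAT, against 36.5% of those of all measured genes.
Itga5: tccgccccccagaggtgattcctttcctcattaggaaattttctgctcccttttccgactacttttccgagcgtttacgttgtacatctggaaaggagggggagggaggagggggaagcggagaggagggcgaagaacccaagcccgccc
Of 14 measured integrin and adhesion genes 3 were 1.5-fold or more lower (background 8.94%) and 2 higher (background 7.39%). Icam2 was 2.59-fold lower at 8.52 CPM in CFUE and 22.1 in the upper gate, and Cd82, a tetraspanin, 1.61-fold higher, or 1.45-fold without the CFUE cell of well F11. The other higher member was Cd24a, a sorted protein's gene, 1.48-fold without the CFUE cell of well F11. Itgb2, 2.77-fold lower on the sums, was 1.05-fold lower without the upper intermediate cell of well A8, which held 63.8% of that gate's reads. By plate rows the log2 ratios, A–D before E–H, were Itgb2 (-2.43 and -0.03) and Cd24a (0.29 and 0.91). Icam2 had -0.43 in rows A–D, which ended its 1.5-fold call.

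Genes of leukocyte signalling and the cortical actin scaffold were lower in CFUE, at 11 of 24 measured members against 8.94% of all measured genes. There was 1 higher against 7.39% (Anxa5, 1.58-fold, or 1.31-fold without the CFUE cell of well A10). The median of their log2 ratios was -0.54 (-0.40 within rows A–D, -0.74 within rows E–H). Arhgdib, an inhibitor of small GTPases in blood cells, was 2.64-fold lower at 25.1 CPM in CFUE against 66.2 CPM in the upper intermediate gate, with lowest, median and highest levels per cell of 0.667, 21.3 and 90.2 CPM in CFUE and of 1.32, 58.03 and 235 CPM in the upper gate. Ptprcap, a membrane partner of CD45, was 2.67-fold lower (14.8 CPM in CFUE and 39.6 in the upper gate), Vav1, a guanine nucleotide exchange factor for Rac, 2.24-fold (18.5 CPM in CFUE and 41.6 in the upper gate), Nrros, a leucine-rich repeat protein, 2.07-fold (36.8 CPM in CFUE and 76.1 in the upper gate) and Cyba, a subunit of the phagocyte oxidase, 2.05-fold (13.7 CPM in CFUE and 28.1 in the upper gate). The score of the list was higher in the CFUE cell in 19.3% of pairs, with medians of 4.88 in CFUE and 5.31 in the upper gate. Laptm5 was 5.23-fold lower at 2.26 CPM in CFUE and 11.8 in the upper gate, or 8.49-fold without the CFUE cell of well C11. Anxa2 was 2.38-fold lower, but 1 CFUE cell, H10, held 76.5% of its CFUE reads, and without it the value was 9.67-fold. Msn and Ezr, which link actin to the membrane, were at 279 CPM in CFUE and 261 in the upper gate and 245 CPM in CFUE and 208 in the upper gate, and Rac2 at 201 CPM in CFUE and 189 in the upper gate. Capg, an actin-capping protein, was 1.52-fold lower, or 1.33-fold without the upper intermediate cell of well E7. The log2 ratios in rows A–D and in E–H were Vav1 (-1.87 and -0.47), Anxa2 (-2.63 and -0.38), Laptm5 (-1.69 and -3.07), Anxa5 (1.16 and 0.25) and Capg (0.06 and -1.15). The call for Vav1, Anxa2 and Anxa5 ended in rows E–H. That for Capg ended in rows A–D.

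In the list of erythropoietin receptor signalling the receptor was slightly higher and several members were lower, restraining ones such as Sh2b3 among them. Epor stood at 418 CPM in CFUE against 334 CPM in the upper intermediate gate, 1.25-fold higher. Of 14 measured genes of the path 7 were 1.5-fold or more lower (background 8.94%) and 1 higher (background 7.39%), and their log2 ratios had a median of -0.56, which was nearer 0 in either block of rows (-0.12 within rows A–D, -0.45 within rows E–H). Sh2b3 (Lnk), an adaptor that restrains JAK2, was 2.25-fold lower at 24.1 CPM in CFUE and 54.03 in the upper gate, with lowest, median and highest levels per cell of 0, 19.1 and 127 CPM in CFUE and of 0.648, 40.8 and 177 CPM in the upper gate. Pim3, a serine kinase, was 2.46-fold lower (15.5 CPM in CFUE and 38.1 in the upper gate), Erfe (erythroferrone) 1.96-fold and the phosphatase Ptpn11 1.84-fold. Ptpn6, a phosphatase, was 1.5-fold lower, or 1.33-fold without the upper intermediate cell of well H7, and Stat5b 1.53-fold lower, or 1.396-fold without the upper intermediate cell of well H7. Stat5a, 1.56-fold lower on the sums (86.1 CPM in CFUE and 134 in the upper gate), was level in 1 block of rows, with log2 ratios of 0.01 in rows A–D and -1.25 in rows E–H, and 1.49-fold without the upper intermediate cell of well G7. The higher member was Bcl2l1, the survival factor Bcl-xL and a target of STAT5, at 31.4 CPM in CFUE and 20.3 in the upper gate, 1.55-fold, or 1.36-fold without the CFUE cell of well F12. Most calls of the list ended in 1 block, with log2 ratios in rows A–D and in E–H of Pim3 (-0.50 and -1.98), Erfe (-1.41 and -0.50), Ptpn11 (-1.15 and -0.53), Ptpn6 (-0.27 and -0.98), Stat5b (-1.11 and -0.26) and Bcl2l1 (0.56 and 0.65). Cish, Socs3 and Pim1, other targets of STAT5, were under 10 CPM in both gates.

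Of 26 measured erythroid transcription factors 18 lay within 1.5-fold, 6 were higher (background 7.39%) and 2 lower (background 8.94%). Gata1 stood at 476 CPM in CFUE and 446 in the upper gate, Klf1 at 1075 CPM in CFUE and 993 in the upper gate, Tal1 at 145 CPM in CFUE and 168 in the upper gate and Bcl11a at 178 CPM in CFUE and 188 in the upper gate. Sox6, which acts in late erythroid maturation, was 4.295-fold higher at 25.6 CPM in CFUE and 5.96 in the upper gate, with 10 reads or more in 14 of 22 CFUE cells and 6 of 24 upper intermediate cells. The upper intermediate cell of well A8 held 41.9% of that gate's Sox6 reads, and the top CFUE cell held 30.5% of the CFUE reads of Sox6. Without the first the ratio was higher, and without the second it was lower. Foxm1, which drives G2 genes, was 1.66-fold higher, or 1.38-fold without the CFUE cell of well E11. Foxo3 was 1.95-fold higher at 28.3 CPM in CFUE and 14.5 in the upper gate and Klf3 1.701-fold at 64.5 CPM in CFUE and 37.9 in the upper gate. Myb, a factor of proliferating progenitors, was 2.07-fold lower at 23.4 CPM in CFUE and 48.5 in the upper gate, and Cbfa2t3 (Eto2), a corepressor that partners Tal1, 2.12-fold lower at 21.7 CPM in CFUE and 46.02 in the upper gate, with 10 reads or more in 14 of 22 CFUE cells and 24 of 24 upper intermediate cells. In the list of stem and multipotent progenitor genes, 2 of 6 measured ones were lower (background 8.94%) and 1 higher (background 7.39%). The higher one was Lmo4, 1.38-fold without the CFUE cell of well C11. Hhex was at 0.522 CPM in CFUE and 16.8 in the upper gate, 32.2-fold lower (interval 20.2 to 54.7), with 10 reads or more in 1 of 22 CFUE cells and 9 of 24 upper intermediate cells, and the CFUE cell of well C10 held 94.4% of the 18 CFUE reads, so that without it no ratio is given. Etv6 was 2.37-fold lower at 8.46 CPM in CFUE and 20.02 in the upper gate. Cd34, Flt3 and Gata2 were under 2 CPM in both gates. Dnmt3b, a de novo DNA methyltransferase, was 3.101-fold lower at 13.9 CPM in CFUE and 43.1 in the upper gate and Tet2 2.51-fold lower. They were the only 2 of 24 measured chromatin genes past 1.5-fold, a share near the background of 8.94%. Dnmt1 stood at 348 CPM in CFUE and 358 in the upper gate. In rows A–D and in E–H the log2 ratios were Foxo3 (0.52 and 1.25), Myb (-0.34 and -2.00), Etv6 (-3.13 and -0.30) and Lmo4 (0.87 and 0.24). Each of these 4 calls ended in 1 block.

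In lipid synthesis 9 of 28 measured members were 1.5-fold or more lower (background 8.94%) and 2 higher (background 7.39%), and the log2 ratios had a median of -0.28. Pisd, which makes phosphatidylethanolamine in mitochondria, was 2.2998-fold lower at 29.6 CPM in CFUE against 67.98 CPM in the upper intermediate gate, with lowest, median and highest levels per cell of 0.675, 21.8 and 113 CPM in CFUE and of 15.6, 57.9 and 143 CPM in the upper gate. Erlin1, an endoplasmic reticulum protein of cholesterol-rich membrane, was 2.35-fold lower at 26.7 CPM in CFUE and 62.7 in the upper gate, and Fasn (fatty acid synthase) 1.96-fold at 58.5 CPM in CFUE and 115 in the upper gate. In cholesterol synthesis Mvd was 4.31-fold lower (3.304 CPM in CFUE and 14.2 in the upper gate) and Fdft1 2.31-fold higher (64.5 CPM in CFUE and 27.9 in the upper gate), with Sqle at 101 CPM in CFUE and 100.2 in the upper gate. Of the lower members, Chka was 1.43-fold without the upper intermediate cell of well C7 and Elovl6 1.31-fold without the upper intermediate cell of well G8. Mgll, monoacylglycerol lipase, was 3.29-fold higher at 67.6 CPM in CFUE and 20.5 in the upper gate. Hk2, a hexokinase, was 2.59-fold lower at 6.43 CPM in CFUE and 16.7 in the upper gate (4.21-fold without the CFUE cell of well C10), and Aldoa and Pkm stood at 852 CPM in CFUE and 1218 in the upper gate and 239 CPM in CFUE and 348 in the upper gate, the other glycolysis genes but Bpgm being within 1.5-fold. Log2 ratios in rows A–D and in E–H were Erlin1 (-0.49 and -2.22), Mvd (-6.45 and -1.53), Mgll (0.93 and 2.20), Hk2 (-0.46 and -4.36) and Elovl6 (0.56 and -1.77). The call ended in rows A–D for Erlin1, Hk2 and Elovl6.

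The machinery of growth differed little in fold. Of 24 cytosolic ribosomal protein genes 0 were 1.5-fold higher (background 7.39%) or lower (background 8.94%), at a median log2 ratio of 0.08. The same held for 29 genes of oxidative phosphorylation, at 0.14. Ribosome biogenesis genes lay lower, at a median of -0.25, with 3 of 28 above a ratio of 1, against 3812 of all 7726 measured genes. Of them 1 was 1.5-fold or more lower (background 8.94%). This was Heatr1 (1.53-fold lower, or 1.42-fold without the upper intermediate cell of well G8). Myc, their known activator, stood at 415 CPM in CFUE and 614 in the upper gate, 1.48-fold lower. Of 15 measured apoptosis regulators 2 were lower (background 8.94%), among them Casp9 (2.31-fold), and 1 higher, Bcl2l1 (background 7.39%). Of 18 genes of autophagy and mitophagy 1 was past 1.5-fold (background 7.39%), Foxo3, with Bnip3l (Nix, which serves the clearing of mitochondria in reticulocytes) at 199 CPM in CFUE and 139.5 in the upper gate. Of 20 antioxidant genes 1 was past 1.5-fold, Gclc (2.703-fold higher, 15.2 CPM in CFUE and 5.63 in the upper gate), and of 13 heat shock chaperones 1, Bag3 (1.64-fold higher, but 1.08-fold without the CFUE cell of well D11). The background of 7.39% holds for both lists. Of 5 measured immediate early genes 2 were higher (background 7.39%), Dusp1 (2.83-fold) and Btg2, and 1 was lower (background 8.94%). The lower one was Ier2 (1.64-fold), with log2 ratios of 0.35 in rows A–D and -1.92 in rows E–H, and 1.33-fold without the upper intermediate cell of well G9. The call ended in 1 block, with log2 ratios in rows A–D and in E–H, for Gclc (0.28 and 2.19), Bag3 (0.93 and 0.47) and Heatr1 (-0.40 and -0.80), and Dusp1 had 0.63 in rows A–D and 2.15 in rows E–H. Of 4 measured genes of BFU-E self-renewal and of 4 of the fetal program 0 were 1.5-fold or more higher (background 7.39%) or lower (background 8.94%). Lin28b stood at 60.2 CPM in CFUE and 81.6 in the upper gate.

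Counted by cells, few genes switched between the gates. Among 7374 genes with 10 reads or more in at least 50% of the cells of a gate, 1 had a share 50 percentage points or more larger in CFUE (0.0136%). This was Gpr146, an orphan G protein-coupled receptor, present in 18 of 22 CFUE cells and 7 of 24 upper intermediate cells and at 57.2 CPM in CFUE against 13.9 CPM in the upper intermediate gate, 4.102-fold higher. The next were Pacs2 (a membrane traffic protein) with 17 of 22 CFUE cells and 7 of 24 upper intermediate cells, Btg2, Plpp1 (a phospholipid phosphatase) with 17 of 22 CFUE cells and 8 of 24 upper intermediate cells, Hbb-bt, Ranbp10 (a tubulin-binding protein) with 16 of 22 CFUE cells and 7 of 24 upper intermediate cells, Man1a (a Golgi mannosidase) and Dnajb14 (a co-chaperone). Man1a changed direction over the plate, -0.84 in rows A–D and 3.96 in rows E–H on the log2 scale. At the other end, after Itga5, stood Zbtb2 (a zinc finger factor) with 4 of 22 CFUE cells and 16 of 24 upper intermediate cells, at 4.75 CPM in CFUE and 18.9 in the upper gate, 3.98-fold lower. The CFUE cell of well E11 held 51.2% of that gate's Zbtb2 reads, and the top upper intermediate cell held 13.1% of its own gate's. Then came Dynll2 (a dynein light chain) with 5 of 22 CFUE cells and 17 of 24 upper intermediate cells, Tsen34 (a subunit of the tRNA splicing endonuclease) with 6 of 22 CFUE cells and 18 of 24 upper intermediate cells, Smg1 (a kinase of nonsense-mediated decay) with 5 of 22 CFUE cells and 16 of 24 upper intermediate cells, Mga (a partner of MAX), Setd2 (a histone methyltransferase) and E2f7 (a repressing E2F). E2f7 was found in every upper intermediate cell, at 1.802 CPM or more, and 12 of 22 CFUE cells lay below that; the sums were 12.6 CPM in CFUE and 28.9 in the upper gate. Setd2 was 3.22-fold lower at 7.82 CPM in CFUE and 25.2 in the upper gate. Mga was 2.403-fold lower, with 40.2% of its CFUE reads in the cell of well G11 and 13.9% of its upper gate reads in the top cell there. Smg1 was 2.42-fold lower on the sums but had log2 ratios of -3.78 in rows A–D and 0.06 in rows E–H. For the other genes counted here the log2 ratios in rows A–D and in E–H were Gpr146 (0.82 and 3.40), Plpp1 (0.61 and 2.86), Ranbp10 (2.66 and 1.25), Zbtb2 (-2.55 and -1.29), Dynll2 (-0.12 and -2.28), Mga (-2.94 and -0.79), Setd2 (-2.42 and -1.32) and E2f7 (-0.56 and -2.19). Dynll2 and E2f7 were within 1.5-fold in rows A–D.

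**Figure D5:**
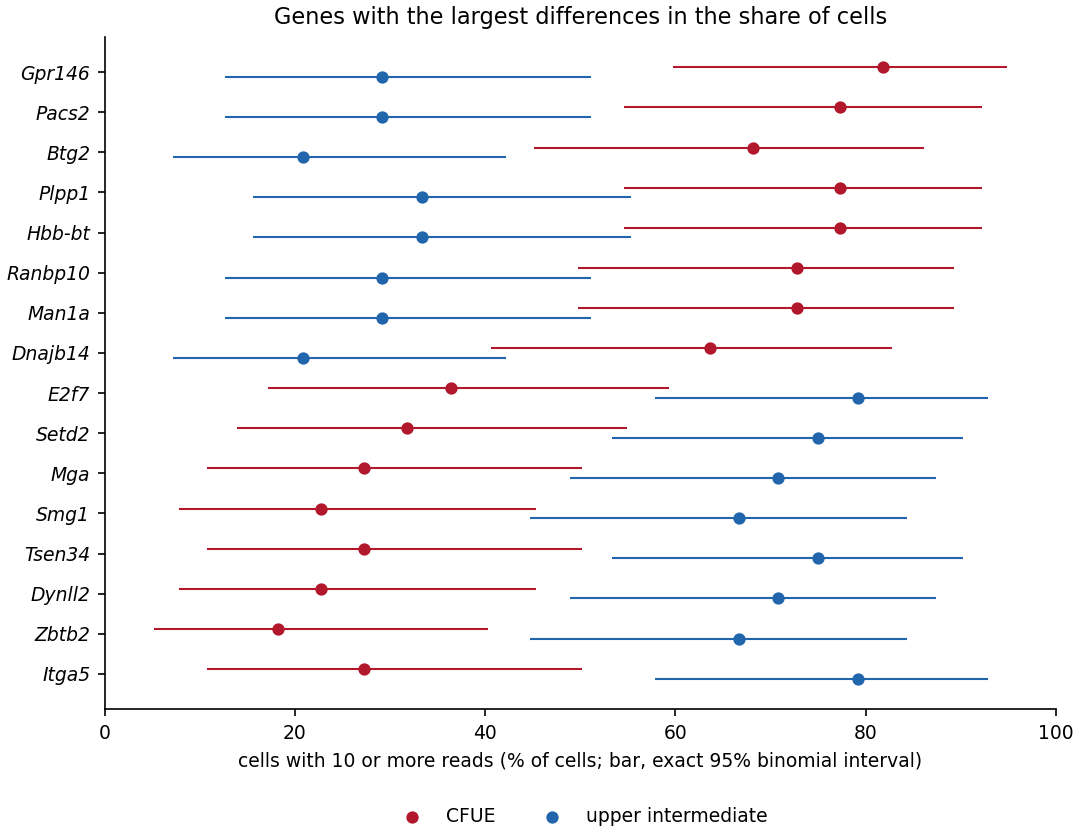
Share of cells with 10 or more reads (horizontal, percent of 22 CFUE cells in red and of 24 upper intermediate cells in blue; bars, exact 95% binomial intervals) for the 8 genes with the largest difference in each direction. Gpr146, at the top, was present in 18 CFUE cells and 7 upper intermediate cells, and Itga5, at the bottom, in 6 CFUE cells and 19 upper intermediate cells.

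By the same rule as Slc4a1 and Itga5 (50 CPM or more in the higher gate, 10 reads in at least 50% of its cells, no cell with over 50% of its reads, 2-fold also in the mean over cells and the same direction in both blocks of rows), 37 genes qualified as higher and 13 as lower. Among the 15 largest ratios of the higher ones was Mrap, an accessory protein of melanocortin receptors, 2.45-fold higher at 77.4 CPM in CFUE and 31.7 in the upper gate. Lower genes not yet described follow. Pdxk, pyridoxal kinase, which makes the cofactor of the first heme enzyme, was 2.67-fold lower at 20.6 CPM in CFUE against 55.02 CPM in the upper intermediate gate, with lowest, median and highest levels per cell of 0, 2.97 and 75.7 CPM in CFUE and of 0, 40.3 and 180.1 CPM in the upper gate. G6pc3, a glucose-6-phosphatase, was 2.34-fold lower (23.7 CPM in CFUE and 55.3 in the upper gate), Zbtb11, a zinc finger factor, 2.15-fold (24.4 CPM in CFUE and 52.4 in the upper gate) and Coq2, of ubiquinone synthesis, 2.06-fold (31.6 CPM in CFUE and 65.04 in the upper gate). Ttc3, a ubiquitin ligase, was 2.14-fold lower (34.3 CPM in CFUE and 73.5 in the upper gate), Sept9, a septin, 2.03-fold (54.7 CPM in CFUE and 111 in the upper gate) and Gna15, a G protein alpha subunit of blood cells, 2.03-fold (24.8 CPM in CFUE and 50.2 in the upper gate). Sept9 had log2 ratios of -0.13 in rows A–D and -2.64 in rows E–H. Its call ended in rows A–D. The course over all gates differed among them. Over BFUE, the lower, the upper gate and CFUE, Sept9 stood at 371, 186, 111 and 54.7 CPM and Nrros at 252, 113, 76.1 and 36.8 CPM. Pdxk, in the same order, stood at 51.6, 80.97, 55.02 and 20.6 CPM, and Coq2 at 49.2, 35.2, 65.04 and 31.6 CPM.

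CFUE cells also differed more among themselves. Of 3773 genes at 50 CPM or more in both gates, 2590 (68.6%) had a larger SD over cells, on the scale of log2 of CPM plus 10, in CFUE than in the upper gate, with a median SD of 0.703 in CFUE and 0.607 in the upper gate. The spread of genes per cell was wider too, and the CFUE cell of well A10 was the shallowest in genes, at 7422. That cell held 2075 CPM of Hba-a1 with 3.56 CPM of Slc4a1 and the lowest membrane skeleton score of either gate, 5.16. Its part in the spread was not tested.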

How the data were processed

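The values are raw read counts per gene from 96 single-cell Smart-seq2 libraries of 1 plate, with 24 wells in each of 4 gates. Per the submitters' processing notes, the authors used STAR 2.4, featureCounts and the build GRCm38, and deposited the counts with no normalization. For the annotation release, strand and shared reads the sources used here give nothing, so genes that overlap or are near-identical copies are uncertain.

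Groups follow the labels, and the rule on wells (50000 reads; for CFUE 7000 genes) left 22 CFUE and 24 upper intermediate cells, with 34506841 and 36422769 summed reads. Counts were summed per gate and given as CPM, with exact conditional binomial 95% intervals of the ratio. A floor of 3 counts was used. No test was made, since each gate is 1 sample and cells are not replicates. Measured genes had 10 CPM in either gate, and calls are 2-fold for genes and 1.5-fold for list members. Thinned counts hold 1000000 reads per cell. No doublet caller was run. The ratios were checked on simulated sums with counting error only. With no spread between cells simulated, the check says nothing of that spread.

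Named genes were the sorted proteins' genes, Slc4a1, Hbb-bs, Cdc25b and Itga5, up to 15 of the largest ratios in each direction, the 8 largest differences in share in each direction and up to 5 members per list; other names were chosen after their values were seen, and some genes that qualify are not reported here. The groups, members and 27 lists (with 7 marker lists) were chosen with earlier results of these data known. The settings that leave out the top cell of a gate and the bounds of 80% and 20% of pairs were chosen after seeing the data. Alternatives were scaling with edgeR 4.0.16 (TMM) and DESeq2 1.42.0 (size factors), totals without globin, mitochondrial and ribosomal RNA genes, other filters, other sets of wells and thinning. Promoters came from RefSeq (GRCm38.p6) and coordinates from GENCODE M21. Analyses used R 4.3.3, scipy 1.17.1, pandas 2.3.3, numpy 2.4.6 and Python 3.11.15.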

Additional observations from a re-analysis of the deposited data

How the results depend on the processing

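Another scaling changed little: TMM moved all log2 ratios by 0.025 and DESeq2's size factors by 0.003, and the heme synthesis median became 0.60 under TMM. With well D10 added, the globin median was 2.90. In plate rows A to D (10 CFUE and 12 upper intermediate cells) there were 350 genes 2-fold or more higher in CFUE and 469 genes 2-fold or more lower in CFUE, and the median log2 ratios were 1.86 for globin, 0.25 for heme synthesis, 0.0125 for the membrane skeleton, 0.35 for G2 and mitosis, -0.0356 for S phase and -0.36 for the actin scaffold list, each over genes measured in those rows. In rows E to H (12 and 12 cells) 434 genes were higher and 492 lower, and the medians were 3.54 for globin, 0.76 for heme synthesis, 0.38 for the membrane skeleton, 0.12 for S phase and -0.74 for the scaffold list. With no filter 1824 genes were higher and 2242 lower, and at 50 CPM 38 were higher and 14 lower. The direction reversed in rows A to D for Man1a (-0.84), Sptb (-0.0441), Tmod1 (-0.80), Stat5a (0.0125), Rb1 (-1.03), Ccnd3 (-0.0221) and Ier2 (0.35), in rows E to H for Smg1 (0.0598), and with no filter for the megakaryocyte marker median (-0.25). The cause was not tested.

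Genes whose share of cells was 50 percentage points larger in CFUE numbered 0 with all CFUE wells, 3 among wells of 8000 genes, 27 in rows A to D, 36 in rows E to H, 0 at 1 read and 3 at 20 CPM. Those with a smaller share numbered 28 in rows A to D, 55 in rows E to H, 3 after thinning, 3 at 1 read and 3 at 20 CPM. Depth limits genes near the floors of 0.0869 CPM in CFUE and 0.0824 CPM in the upper gate. No paired analysis was possible because the shared numbers are well positions, each gate is 1 sample and no test was made.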

Other observations

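Of 12 markers of megakaryocytes, which share a progenitor with red cells, 3 were measured, and the summed level of all 12 was 81.4 CPM in CFUE and 82.2 CPM in the upper gate. Gp9 was 3.898-fold higher at 14.7 CPM in CFUE and 3.76 in the upper gate. Gp1ba was 1.57-fold higher at 10.2 CPM in CFUE and 6.48 in the upper gate, or 1.12-fold without the CFUE cell of well E12. At the low end of the pairs of cells, Ppp2r5d (a regulatory subunit of phosphatase PP2A) was higher in the CFUE cell in 14.6% of pairs, at 128 CPM in CFUE and 202 in the upper gate, and Ppif (cyclophilin D of mitochondria) in 18.2%. In all, 8 measured genes (0.104%) lay at 20% of pairs or less.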
